A study of Mus musculus with 4 samples.

Results

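The fibrillar collagens are the rope-like proteins that give connective tissue its tensile strength, and this account covers the 9 genes that encode their classical chains: Col1a1 and Col1a2 of type I, Col3a1 of type III, Col5a1, Col5a2 and Col5a3 of type V, Col11a1 and Col11a2 of type XI, and Col2a1 of type II. The 9 genes were taken by name from 23005 genes and unnamed transcripts with reads in at least 1 library, and all 9 were listed. The choice was made with earlier results of these data known. The samples are cultures of embryonic fibroblasts (MEFs), mesenchymal cells grown out of mouse embryos, whose RNA was sequenced in 4 groups. These were MEFs labelled Mll1-/- with TNF (tumour necrosis factor alpha, an inflammatory cytokine), MEFs labelled Mll1-/- with control solution, wild-type (Mll1+/+) MEFs with TNF, and wild-type MEFs with control solution. Treatment lasted 4 hr at 10 ng/ml in the series' design text and the labels, while the dose has a different unit in the protocol field. All cells grew in the same serum-containing medium.

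Cells from 3 independent rounds of treatment went into each library, so every group is 1 library of pooled cells. No spread between replicates exists, no test between groups was possible, and every difference below describes 4 libraries. The labels name 1 MEF line per genotype and do not describe the Mll1 allele, so a difference between the lines and an effect of Mll1 cannot be told apart. Mll1 itself, listed under its current symbol Kmt2a, stood at 1.66 RPKM with TNF and 2.02 RPKM without it in the libraries labelled Mll1-/-, against 2.11 and 1.85 RPKM in wild type. RPKM is the number of reads of a transcript scaled by its length in kilobases and by the library's read total. The transcript of the targeted gene was therefore not missing from the libraries labelled Mll1-/-, and the genotype of each library rests on its label. Read totals were 19306506 and 20081869 for the libraries labelled Mll1-/- with and without TNF, and 27977248 and 27728647 for wild type with and without TNF.

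Markers of fibroblasts were abundant in all 4 libraries. Of 11 fibroblast markers, 10 of them matched to an entry (all but Thy1), 9 reached 1 RPKM in the libraries labelled Mll1-/- and 7 in wild type. The calcium-binding protein gene S100a4 had 2385 and 1332 RPKM with and without TNF in cells labelled Mll1-/-, against 2692 and 2934 RPKM in wild type, and the intermediate filament gene Vim lay between 2097 and 2418 RPKM. The summed level of the list was 4731 and 3772 RPKM with and without TNF in cells labelled Mll1-/-, against 5037 and 5466 RPKM in wild type. Vim and S100a4 made up most of this sum, and both were lower in cells labelled Mll1-/- than in wild type, with and without TNF. All other matched markers were higher in cells labelled Mll1-/-. Without TNF, Fn1 was at 171 against 59.1 RPKM and Pdgfra at 3.20 against 0.220 RPKM. The collagen-binding proteoglycan gene Dcn was at 15.2 and 9.16 RPKM with and without TNF in cells labelled Mll1-/- and listed at 0 in both wild-type libraries. Cartilage cells make type II and type XI collagen, but of the 7 matched chondrocyte markers (of 11) 1 reached 1 RPKM in each library, the transcription factor gene Sox9. The cartilage genes Acan, Matn1, Ucma and Snorc were not matched to an entry. The summed level of 6 smooth muscle markers moved with the genotype label, at 223 and 207 RPKM with and without TNF in cells labelled Mll1-/-, against 108 and 117 RPKM in wild type, mostly through Acta2. The part of either marker list in the collagen differences was not tested. The 5 matched endothelial and 5 matched epithelial markers stayed below 1 RPKM each in all 4 libraries. Of the matched macrophage or leukocyte markers 1 of 4 reached 1 RPKM (Cd14), and of the osteoblast markers 2 of 6. In bulk RNA, fewer cells that make a transcript and less of that transcript per cell cannot be told apart.

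Each fibrillar collagen chain carries a long run of Gly-X-Y repeats that winds with partner chains into a rigid helix. Type I, the main collagen of skin, tendon and bone, joins a pair of alpha1 chains (Col1a1) to a single alpha2 chain (Col1a2). Type III is built from Col3a1 chains alone and accompanies type I in skin, vessel walls and healing wounds. Type V is a minor partner that helps type I fibrils to form and limits their width, and type XI does the same for the type II fibrils of cartilage. After secretion the ends of the chains are trimmed, and lysyl oxidases crosslink the fibrils.

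The DNA before the annotated start of Col3a1, Col1a2 and Col5a1 is shown because these genes had a very large, a large and a small difference between the genotypes. The sequences are from RefSeq on GRCm38.p6, all on the plus strand, and a window was found for 6 of the 9 genes (not for Col1a1, Col5a2 or Col2a1). Each runs for 250 bases up to the start, except that Col5a1 stops after 206 bases, where the annotated span of the gene begins. Capitals mark matches to 3 short promoter motifs, the CCAAT box, the GC box (GGGCGG) and the TATA box (TATAAA), each on either strand. Col3a1 lies at chr1:45311288-45311537, Col1a2 at chr6:4505368-4505617 and Col5a1 at chr2:27886175-27886380.
Col3a1: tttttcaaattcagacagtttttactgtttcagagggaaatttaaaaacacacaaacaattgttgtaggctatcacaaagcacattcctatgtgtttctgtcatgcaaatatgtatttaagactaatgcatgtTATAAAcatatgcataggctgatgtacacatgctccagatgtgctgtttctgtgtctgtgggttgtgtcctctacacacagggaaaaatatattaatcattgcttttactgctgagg
Col1a2: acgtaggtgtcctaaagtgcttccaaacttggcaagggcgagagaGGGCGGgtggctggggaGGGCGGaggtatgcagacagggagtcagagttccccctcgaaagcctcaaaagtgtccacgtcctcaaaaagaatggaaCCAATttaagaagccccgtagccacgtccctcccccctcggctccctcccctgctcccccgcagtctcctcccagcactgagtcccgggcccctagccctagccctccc
Col5a1: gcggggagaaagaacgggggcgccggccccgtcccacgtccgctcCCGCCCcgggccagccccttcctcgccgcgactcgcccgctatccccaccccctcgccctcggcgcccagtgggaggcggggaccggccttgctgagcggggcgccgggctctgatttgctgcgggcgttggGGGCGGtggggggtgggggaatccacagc

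The Col3a1 window was the poorest in G and C of the 6, at 35.2% of its 250 bases, compared with 62.0% for Col1a2, 76.4% for Col5a1 and a median of 52.4% over 32851 mouse windows. It held 1 TATAAA and no CCAAT or GGGCGG. The Col1a2 window held 1 CCAAT and 2 GGGCGG, and Col5a1 held 2 GGGCGG and no CCAAT. These letters are common: CCAAT was in 33.8%, GGGCGG in 32.7% and TATAAA in 12.4% of all windows. The NF-kB consensus, the motif of the transcription factor that TNF activates, was found in none of the 6 windows and in 7.25% of all windows. All motifs were searched on both strands of 250 bases, and no marked match overlaps another. A match, or its absence from this window, says nothing about binding.

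Col1a1 was the most abundant fibrillar collagen gene in each of the 4 libraries, followed by Col1a2 in all but wild type with TNF, where Col5a2 stood above it. The libraries labelled Mll1-/- held several times more type I RNA than the wild-type libraries. Col1a1, which encodes the alpha1 chain of type I, had 295 RPKM with TNF and 337 RPKM without it in cells labelled Mll1-/-, against 92.5 RPKM with TNF and 105 RPKM without it in wild type. Both libraries labelled Mll1-/- lay above both wild-type libraries. Col1a2, which encodes the alpha2 chain, had 170 RPKM with TNF and 198 RPKM without it in cells labelled Mll1-/-, against 25.9 RPKM with TNF and 32.2 RPKM without it in wild type. Here too the 2 genotypes did not overlap. The same held for Col3a1, Col5a1, Col5a2, Col5a3 and Col2a1, in either direction, so such separation does not set type I apart. The share of all features with such separation was not counted, so it is not read as a result about these genes. Without TNF, Col1a1 ranked 181st and Col1a2 317th among named genes in cells labelled Mll1-/-, against 767th and 2520th in wild type.

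**Figure D1:**
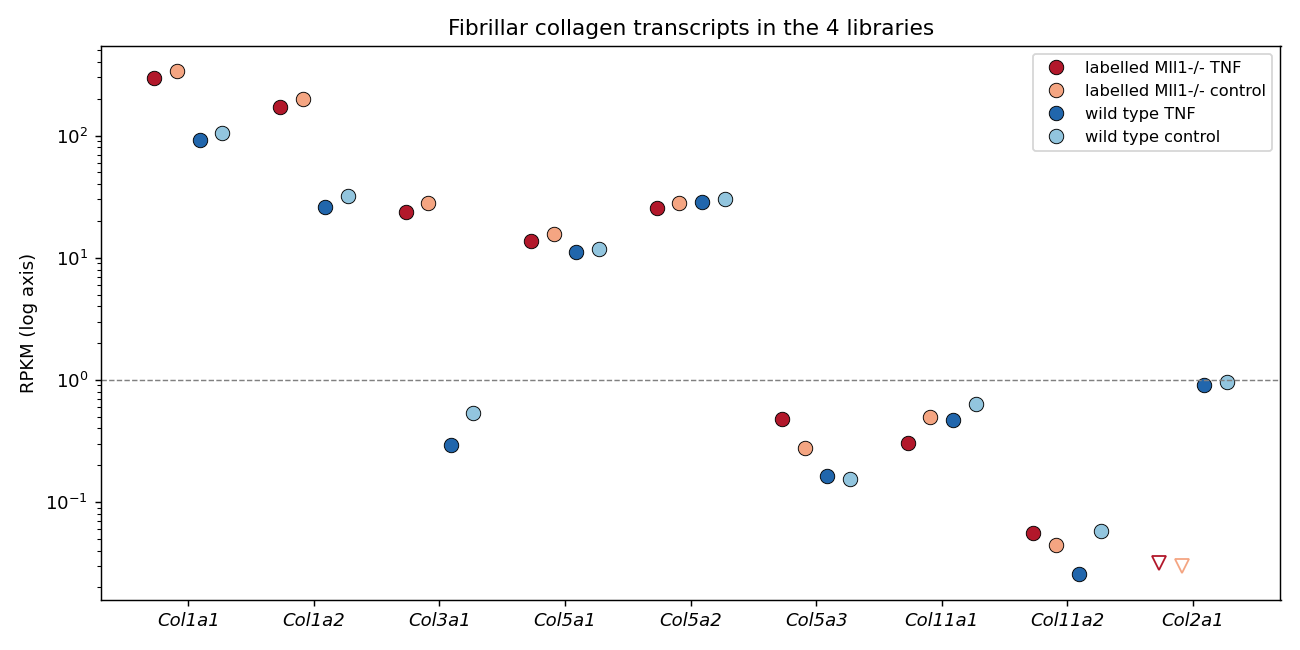
RPKM (log axis) of the 9 fibrillar collagen genes, with a point for each of the 4 libraries and open triangles at the level of 3 reads where a library held 0. Col1a1, Col1a2 and Col3a1 are higher in both libraries labelled Mll1-/- than in both wild-type libraries, Col5a1 and Col5a2 lie close together in all 4, and the dashed line marks 1 RPKM.

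On the log2(RPKM + 0.5) scale Col3a1 had the widest contrast of the 9 genes, while the fold of Col2a1, with 0 reads in both libraries labelled Mll1-/-, is bounded from below only. Col3a1 encodes the chain of type III collagen. It stood at 23.5 RPKM with TNF and 28.1 RPKM without it in cells labelled Mll1-/-, against 0.296 RPKM with TNF and 0.531 RPKM without it in wild type. In reads these values are 2529 and 3141 in the libraries labelled Mll1-/-, against 46 and 82 in wild type, so the transcript was low but detected in wild-type cells.

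The type V genes had much more even levels. Col5a1, which encodes the alpha1 chain of type V, had 13.7 RPKM with TNF and 15.7 RPKM without it in cells labelled Mll1-/-, against 11.2 and 11.8 RPKM with and without TNF in wild type. Col5a2, the alpha2 chain gene, had 25.7 RPKM with TNF and 28.3 RPKM without it in cells labelled Mll1-/-, against 28.5 and 30.2 RPKM in wild type. Col5a2 was thus the 1 abundant fibrillar collagen whose level was slightly lower in both libraries labelled Mll1-/-. Col5a3, the rarer alpha3 chain gene of type V, had 0.477 RPKM with TNF (56 reads) and 0.278 RPKM without it (34 reads) in cells labelled Mll1-/-, against 0.164 RPKM (28 reads) and 0.154 RPKM (26 reads) in wild type. It was near the floor throughout, with the highest value in the library labelled Mll1-/- with TNF.

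The cartilage chains were rare. Col11a1, the alpha1 chain gene of type XI, had 0.306 RPKM with TNF (43 reads) and 0.493 RPKM without it (72 reads) in cells labelled Mll1-/-, against 0.472 RPKM (96 reads) and 0.630 RPKM (127 reads) in wild type. The genotypes overlap, and in each the TNF library was the lower. Col11a2, the alpha2 chain gene of type XI, had between 4 and 9 reads in each of the 4 libraries, too few to order them. Col2a1, whose product is the main collagen of cartilage, was listed at 0 in both libraries labelled Mll1-/-, against 0.911 RPKM with TNF (126 reads) and 0.956 RPKM without it (131 reads) in wild type.

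Col2a1 has 2 entries with almost the same values. The longer, of 5149 bases, is 205 bases longer than the shorter, of 4944 bases, and also had 0 reads in both libraries labelled Mll1-/-, against 131 reads with TNF and 134 without it in wild type. The shorter entry is used here because its mean RPKM is the higher.

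For the comparison of the genotypes without TNF, values were taken as log2(RPKM + 0.5), which understates the difference of low genes, and a difference of 1 or more in size (2-fold on that scale) was counted. Over the 14386 genes and unnamed transcripts with at least 1 RPKM in a library, 7.11% were higher and 7.99% were lower in the library labelled Mll1-/-. Of the 9 fibrillar collagen genes 5 had 1 RPKM or more in a library: Col1a1, Col1a2, Col3a1, Col5a1 and Col5a2. Of these 3 were higher by that rule and 0 lower. Col3a1 would not have been in the comparison without the libraries labelled Mll1-/-. The median difference of all 9 genes was 0.25, beside -0.07 for all features compared.

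Col3a1 was higher by 4.79 on the log2 scale, and ranked 17th from the top of the 14386. Its reads relative to the library totals were 52.9-fold higher in the library labelled Mll1-/- than in wild type (counting interval 42.5 to 66.7). Counting intervals are 95% exact binomial (Clopper-Pearson) intervals and cover counting error only. They lay above 1 for 5 of the 9 genes and below 1 for 2, including Col5a3 (above) and Col2a1 (below), which did not pass the filter. Of the features past the filter, 33.6% lay above 1 and 42.5% below. Col1a2 was higher by 2.61 (6.16-fold, counting interval 5.97 to 6.36) and Col1a1 by 1.68 (3.21-fold, counting interval 3.15 to 3.28). The 2 type I genes thus differed from each other in the size of the contrast, and their intervals did not overlap.

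Col5a1 and Col5a2 differed little between the genotypes. The difference of Col5a1 was 0.39 (1.33-fold, counting interval 1.26 to 1.40), and that of Col5a2 was -0.09 (0.935-fold, counting interval 0.897 to 0.975). When the libraries were scaled to equal summed RPKM without the 20 genes of highest level, the median of all features moved by 0.28 in this comparison, 1524 features were higher and 623 lower in place of 1023 and 1150, and Col5a2 turned to 0.20. Leaving the 9 collagen genes out of the sums instead gave nearly the same counts (1523 and 624). With the trend of the difference on transcript length removed, Col5a1 stood at 0.13 and Col5a2 at -0.32. The direction of Col5a2 therefore depends on the scaling, while Col1a1 (1.54 to 1.98 over all alternatives), Col1a2 (2.44 to 2.90) and Col3a1 (4.25 to 5.48) kept theirs.

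Among the genes below 1 RPKM, Col2a1 lay just outside the filter and had the strongest contrast in the other direction. With 0 reads taken as 3, it was 31.6-fold lower in the library labelled Mll1-/-, and at least 25.4-fold lower by its counting interval. By the log2 rule it would have been counted as lower (-1.54) had the filter not removed it. Col5a3 was 1.81-fold higher (counting interval 1.05 to 3.13). For Col11a1 the ratio was 0.783 (counting interval 0.578 to 1.05) and for Col11a2 0.767 (counting interval 0.202 to 2.55), so no difference was detectable for either type XI gene at this depth.

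**Figure D2:**
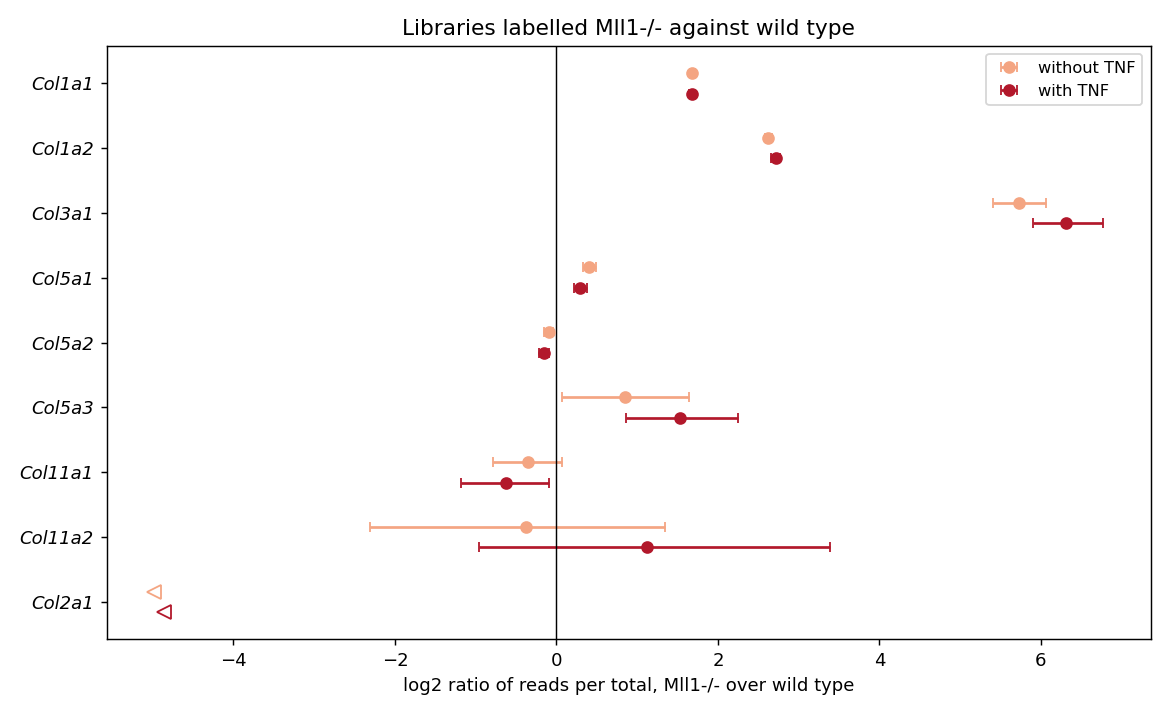
Log2 ratio of reads per library total, labelled Mll1-/- over wild type, for each gene without and with TNF, with 95% counting intervals. Open triangles are at the ratio for 3 reads where a library held 0. Col3a1, Col1a2 and Col1a1 lie to the right, Col5a1 and Col5a2 near 0 and Col2a1 far to the left, in both comparisons.

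With TNF present, 6.71% of all features were higher and 4.5% lower in the library labelled Mll1-/-. Again 3 of the 5 collagen genes past the filter were higher and 0 lower. These libraries are other ones than those compared above, though they come from the same cells and so do not replicate the genotype. Col3a1 was 79.7-fold higher (counting interval 59.5 to 109), Col1a2 6.57-fold (counting interval 6.34 to 6.80) and Col1a1 3.19-fold (counting interval 3.12 to 3.26). Col5a1 was 1.23-fold higher (counting interval 1.16 to 1.30) and Col5a2 0.900-fold (counting interval 0.861 to 0.940). Below the filter, Col5a3 was 2.90-fold higher (counting interval 1.81 to 4.74) and Col11a1 0.649-fold (counting interval 0.442 to 0.939). Col2a1, with 0 reads taken as 3, was 29.0-fold lower, and at least 23.2-fold lower by its counting interval. By the log2 rule it would have been counted as lower (-1.50) had the filter not removed it. The counting interval lay above 1 for 5 of the 9 genes and below 1 for 3, with Col5a3, Col11a1 and Col2a1 among them. Of the features past the filter, it lay above 1 for 30.8% and below 1 for 38.8%. The median over all 9 genes was 0.28, beside -0.05 for all features.

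The unequal contrasts changed the proportions of the chains inside each library, a quantity that does not depend on the scaling between libraries. The ratio of Col1a1 to Col1a2, in RPKM, was 1.73 with TNF (counting interval 1.70 to 1.77) and 1.70 without it (1.67 to 1.73) in cells labelled Mll1-/-, against 3.57 with TNF (3.44 to 3.70) and 3.26 without it (3.15 to 3.37) in wild type. The ratio was thus lower in both libraries labelled Mll1-/-: without TNF it was 0.521 times that of wild type (interval 0.502 to 0.541), and with TNF 0.486 times (0.466 to 0.507). These last intervals are normal intervals on the log scale and cover counting error only.

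Type III RNA stood at a very different proportion of type I. The ratio of Col3a1 to Col1a1 was 0.0798 with TNF and 0.0834 without it in cells labelled Mll1-/-, against 0.00320 and 0.00506 in wild type. Without TNF the ratio was 16.5 times that of wild type (interval 13.2 to 20.5), and with TNF 24.97 times (18.6 to 33.4).

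For type V, the ratio of Col5a1 to Col5a2 was 0.534 with TNF and 0.555 without it in cells labelled Mll1-/-, against 0.391 in each wild-type library. Without TNF it was 1.42 times that of wild type (interval 1.33 to 1.52), and with TNF 1.36 times (1.27 to 1.47). Within wild type, the ratio with TNF was 0.631 times that without it for Col3a1 to Col1a1 (0.440 to 0.907) and 1.09 times for Col1a1 to Col1a2 (1.04 to 1.15). Col5a2 stood at 0.0870 and 0.0838 of Col1a1 with and without TNF in cells labelled Mll1-/-, against 0.309 and 0.288 in wild type. Wild-type cells therefore had several times more type V alpha2 RNA for each type I alpha1 RNA.

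**Figure D3:**
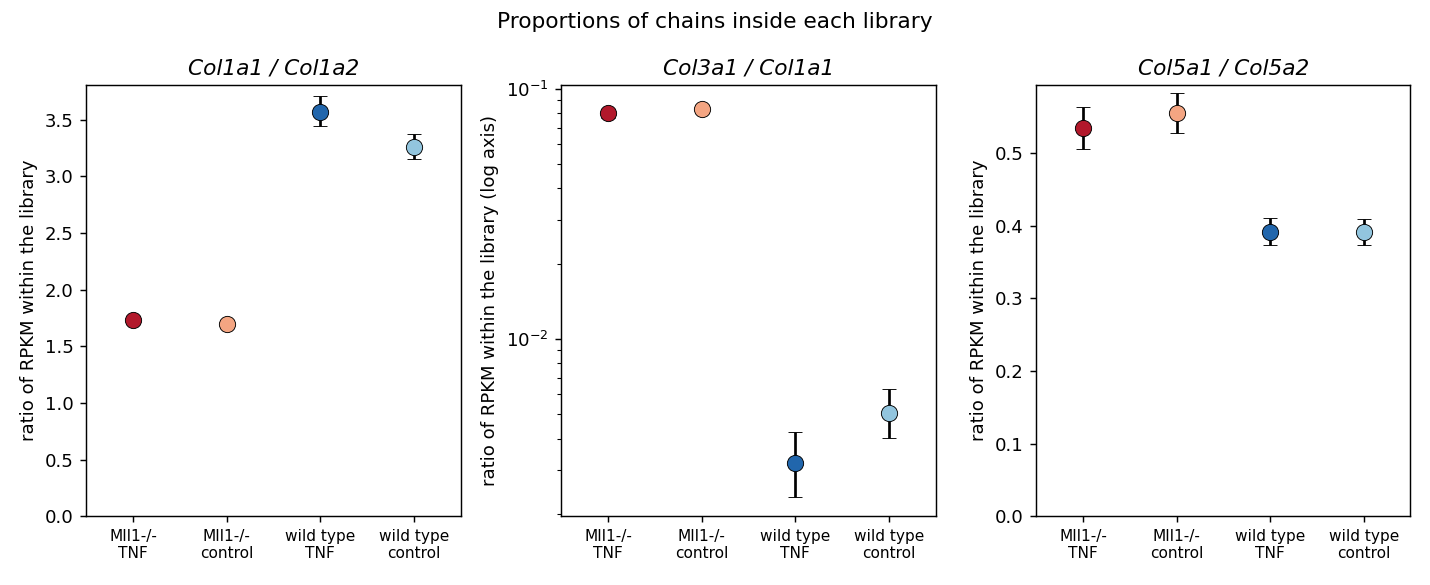
Ratio of RPKM between chain genes within each of the 4 libraries, with 95% counting intervals, for Col1a1 to Col1a2, Col3a1 to Col1a1 (log axis) and Col5a1 to Col5a2. The libraries fall by genotype label in each panel, for example at 1.73 and 1.70 against 3.57 and 3.26 for Col1a1 to Col1a2. Within wild type, Col3a1 to Col1a1 is lower with TNF (0.00320) than without it (0.00506).

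The order of the genes also differed. In the library labelled Mll1-/- without TNF, Col5a2 and Col3a1 held the third place together (ratio 1.005, counting interval 0.958 to 1.05), behind Col1a1 and Col1a2 and ahead of Col5a1. With TNF, Col5a2 was slightly ahead of Col3a1 (1.09, counting interval 1.04 to 1.15). In wild type without TNF the order was Col1a1, Col1a2, Col5a2, Col5a1, Col2a1, Col11a1 and Col3a1. The ratio of Col5a2 to Col1a2 there was 0.938 (counting interval 0.902 to 0.976), and with TNF it was 1.101 (1.06 to 1.15), so these neighbours changed places. Col11a1 and Col3a1 could not be separated in wild type without TNF (1.18, counting interval 0.890 to 1.58).

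All 9 genes together made up 0.269% and 0.309% of the reads with and without TNF in the libraries labelled Mll1-/-, against 0.0862% and 0.0973% in wild type. As a share of the summed RPKM of all genes the values were 0.0495% and 0.0638% in the libraries labelled Mll1-/-, against 0.0139% and 0.0155% in wild type. Type I supplied 87.9% and 88.0% of the summed collagen RPKM in cells labelled Mll1-/-, against 74.0% and 75.6% in wild type. Type V alpha2 took most of the remainder in wild type, at 17.8% and 16.6% with and without TNF, compared with 4.85% and 4.64% in cells labelled Mll1-/-.

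TNF is known to repress type I collagen transcription in fibroblasts. Within 4 hr, no fibrillar collagen gene passed the 2-fold rule with TNF in either genotype. Among all features, 0.688% were higher and 0.16% lower by that rule in cells labelled Mll1-/-, and 0.521% higher and 0.0556% lower in wild type. The 5 genes past the filter were nevertheless lower in the TNF library of each genotype, by amounts beyond counting error. Among all features the counting interval lay below 1 for 22.2% in cells labelled Mll1-/- and 19.8% in wild type. With the trend on transcript length removed, Col5a1 (log2 0.03) and Col5a2 (0.04) were no longer lower in cells labelled Mll1-/-.

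In wild type, Col1a2 had 3728 reads with TNF and 4593 without it, a ratio of 0.804 (counting interval 0.770 to 0.840). Col1a1 had a ratio of 0.881 (0.859 to 0.902), Col5a1 of 0.945 (0.895 to 0.997) and Col5a2 of 0.944 (0.909 to 0.981). Col3a1 had 46 reads with TNF and 82 without it, a ratio of 0.556 (0.379 to 0.807), and Col11a1 96 and 127 reads, a ratio of 0.749 (0.569 to 0.984). In wild type the counting interval lay below 1 for 6 of the 9 genes, among them Col11a1 from below the filter, and above 1 for 0. Of the features past the filter, it lay below 1 for 19.8% and above 1 for 15.8%. The intervals of Col2a1, Col5a3 and Col11a2 included 1. On the log2(RPKM + 0.5) scale the differences ran from -0.37 (Col3a1) to -0.08 (Col5a1 and Col5a2) for the 5 genes past the filter, of which Col3a1 passed through its level in cells labelled Mll1-/- alone, and Col1a2 (-0.31) ranked 584th from the bottom of 14386.

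In cells labelled Mll1-/-, the ratios with TNF were 0.875 for Col1a1 (counting interval 0.861 to 0.889), 0.857 for Col1a2 (0.840 to 0.875) and 0.837 for Col3a1 (0.794 to 0.883). They were 0.875 for Col5a1 (0.826 to 0.926) and 0.909 for Col5a2 (0.867 to 0.952). Col11a1 had 43 reads with TNF and 72 without it, a ratio of 0.621 (0.416 to 0.919). Col5a3 was the 1 gene with an interval above 1, at 56 reads with TNF and 34 without it (1.71-fold, counting interval 1.10 to 2.71). Col11a2 had 6 reads with TNF and 5 without it, and its interval included 1 (0.317 to 5.17). The interval lay below 1 for 6 of the 9 genes and above 1 for 1, including Col11a1 (below) and Col5a3 (above), which did not pass the filter. Of the features past the filter, it lay below 1 for 22.2% and above 1 for 26.5%. Genes with many reads have narrow intervals, so for them a small difference in scaling is enough to exclude 1.

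Transcript length moved with this comparison, and also with that of the genotypes without TNF. The library labelled Mll1-/- without TNF is in both. Without TNF, the median log2 difference between the genotypes was -0.53 below 592 bases and 0.25 at 5601 bases or more. With TNF it was -0.17 and 0.01. Among transcripts of 5601 bases or more, the median log2 TNF difference was -0.20 in cells labelled Mll1-/- and 0.03 in wild type, and collagen transcripts are long, at 4709 to 8420 recovered bases. The smooth trend at their lengths was -0.12 for Col1a1, -0.14 for Col1a2, -0.15 for Col3a1, -0.21 for Col5a1 and -0.18 for Col5a2 in cells labelled Mll1-/-. With the trend removed, the differences there were -0.07 for Col1a1, -0.09 for Col1a2 and -0.10 for Col3a1, and Col5a1 (0.03) and Col5a2 (0.04) turned positive. At equal summed RPKM without the 20 genes of highest level, the differences in cells labelled Mll1-/- were larger instead, at -0.39 for Col1a2, -0.41 for Col3a1 and -0.30 for Col5a2. In wild type the trend was near 0 at these lengths, and with it removed Col1a1 stood at -0.18, Col1a2 at -0.32, Col3a1 at -0.39, Col5a1 at -0.11 and Col5a2 at -0.10.

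**Figure D4:**
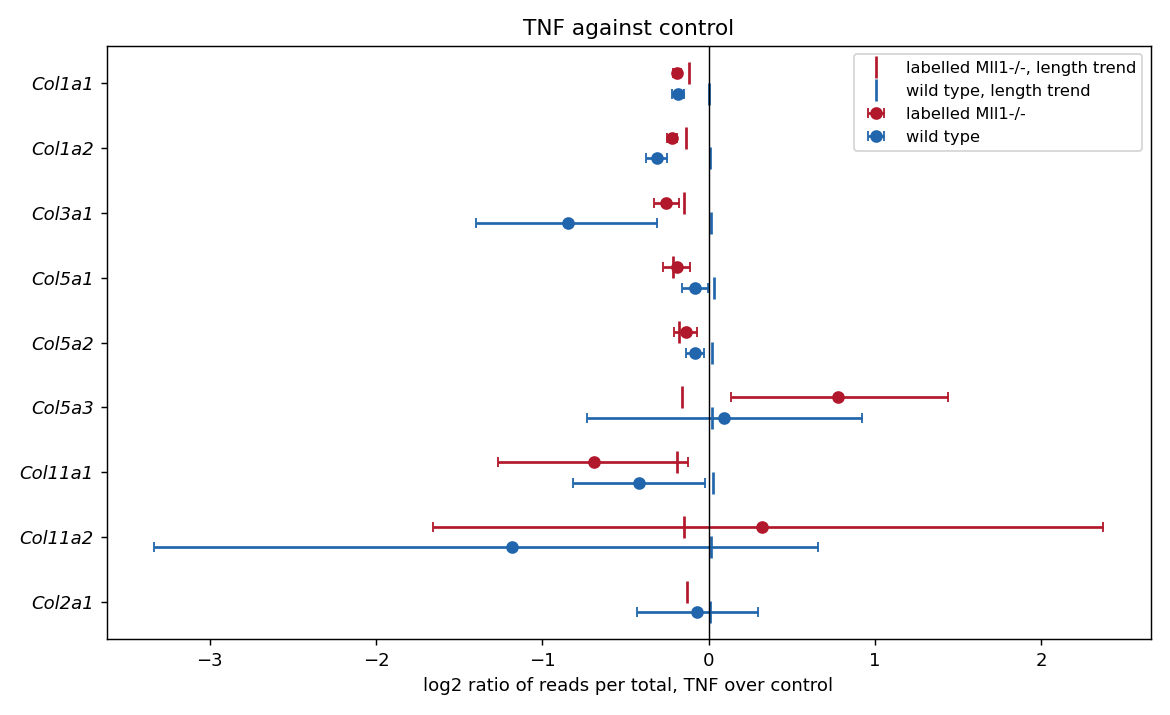
Log2 ratio of reads per library total, TNF over control, for each gene in cells labelled Mll1-/- and in wild type, with 95% counting intervals; upright ticks mark the log2 trend of all features at the gene's transcript length. In wild type the 5 genes past the filter lie left of their ticks, which sit near 0, whereas in cells labelled Mll1-/- the ticks themselves lie between -0.12 and -0.21 for the same 5 genes.

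For the difference in TNF response between the genotypes, 0 of the 5 collagen genes past the filter passed the 2-fold rule. Of all features 0.758% were higher and 0.424% lower, so a count of 0 says little about these genes. The difference, taken as the log2 TNF ratio of reads in cells labelled Mll1-/- minus that in wild type, was 0.09 for Col1a2 (normal interval 0.02 to 0.16) and 0.59 for Col3a1 (0.06 to 1.12). It was -0.01 for Col1a1 (-0.05 to 0.03), -0.11 for Col5a1 (-0.22 to 0.00056) and -0.06 for Col5a2 (-0.14 to 0.03). Of the 8 genes with reads in all 4 libraries, 2 had an interval above 0 and 0 below, while 25.3% of all features had an interval above 0 and 20.1% below. With libraries at equal summed RPKM (without the 20 genes of highest level), the same read-based difference was -0.10 for Col1a2 (-0.17 to -0.03), so its direction depends on the scaling. That of Col3a1 was 0.40 (-0.12 to 0.93), an interval that includes 0. On the log2(RPKM + 0.5) scale, where its low wild-type level weighs less, the difference of Col3a1 was 0.12, and -0.06 with that scaling.

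The genes around fibril assembly, grouped by role, differed in both directions, and several counts depend on the condition or the scaling. Lists were fixed by name. Unless a setting is named, medians and counts refer to the comparison of the genotypes without TNF over members with 1 RPKM or more. Their backdrop is 7.11% higher, 7.99% lower and a median of -0.07 for all features. With TNF it is 6.71%, 4.5% and -0.05. At equal summed RPKM without TNF, 1524 of the 14386 features were higher and 623 lower, with a median of 0.21. When the trend on transcript length was taken out instead, these numbers were 1186, 701 and 0.0005. Scaling to equal summed RPKM moved the median of all features by 0.28, so genes just below the rule can pass through it alone. Some genes past the rule entered the counts only through the genotype in which they were higher, so the filter in part set their calls. Through cells labelled Mll1-/- alone these were P4ha3, Adamts2, Mmp9, Mmp16, Col27a1, Creb3l1 and Trps1. Through wild type alone they were Sfrp2 and Mmp2. Of 19 genes for procollagen folding and hydroxylation, 1 was higher and 1 lower, with a median of -0.13 (0.10 with TNF). At equal summed RPKM without the 20 genes of highest level, 1 was higher, 0 were lower and the median was 0.15. P4ha3, a catalytic subunit of the prolyl hydroxylase that stabilises the helix, was at 10.2 RPKM in the library labelled Mll1-/- against 0.107 RPKM in wild type (log2 4.14). Mia3, which helps to load procollagen for export, was at 21.0 against 15.2 RPKM (0.46). Plod3, a lysyl hydroxylase gene, was the lowest at 23.0 against 52.7 RPKM (-1.18), and P4hb, the partner subunit of the prolyl hydroxylase, followed at 310 against 442 RPKM (-0.51).

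Of the 9 genes for procollagen cleavage 6 reached 1 RPKM, 1 was higher and 3 were lower (median -0.92). With TNF, and without TNF at equal summed RPKM, 1 was lower, Sfrp2. Adamts2, which removes the amino-terminal propeptide, was at 2.85 RPKM in the library labelled Mll1-/- against 0.0482 RPKM in wild type (log2 2.61), and its relative Adamts14 at 3.02 against 2.38 RPKM (0.29). Pcolce2, an enhancer of carboxy-terminal cleavage, was at 29.9 against 68.5 RPKM (-1.18), and Sfrp2, a secreted Wnt modulator, had 0 reads against 93. The third lower gene was Bmp1, the carboxy-terminal proteinase itself (8.07 against 16.9 RPKM, -1.02), named here after its value was seen.

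Of 5 lysyl oxidase genes, 1 was higher and 1 lower (median 0.10). With TNF 1 was higher and 0 lower (median -0.07), and at equal summed RPKM without TNF 2 were higher, Lox and Loxl2, and 0 lower. Loxl2 was at 17.7 RPKM in the library labelled Mll1-/- against 5.43 RPKM in wild type (log2 1.62) and Lox, the most abundant, at 330 against 170 RPKM (0.96). Loxl3 (7.85 against 19.0 RPKM, -1.23) and Loxl1 (6.67 against 11.5 RPKM, -0.75) were the lowest.

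Of 5 collagen receptors at 1 RPKM or more, 0 were higher and 0 lower. Their median of 0.09 turned to -0.21 with TNF and to -0.17 with the length trend removed. The genes ranged from the integrin genes Itgb1 (258 RPKM in the library labelled Mll1-/- against 163 RPKM in wild type, 0.66) and Itga1 (1.39 against 0.711 RPKM, 0.64) to the discoidin receptor gene Ddr1 (6.89 against 8.68 RPKM, -0.31) and the collagen uptake receptor gene Mrc2 (4.66 against 7.89 RPKM, -0.70).

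Enzymes that degrade collagen diverged. Of 5 such genes at 1 RPKM or more 2 were higher and 1 lower (median 0.87), and with TNF 3 were higher and 2 lower, with Mmp9 and Mmp14 added. The collagenase gene Mmp13 was at 3.09 RPKM in the library labelled Mll1-/- against 0.135 RPKM in wild type (log2 2.50), and Mmp16 at 1.38 against 0.00788 RPKM (1.89), where the wild-type value is 1 read. Mmp2, a gelatinase gene, was at 0.406 RPKM in the library labelled Mll1-/- against 48.3 RPKM in wild type (-5.75), and Mmp14, which encodes its membrane-bound activator, at 20.7 against 41.1 RPKM (-0.97). Mmp13 was also the 1 gene of this list past the 2-fold rule with TNF, in both genotypes.

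Of 22 regulators of collagen genes at 1 RPKM or more, 5 were higher and 0 lower (median 0.32). With TNF 3 were higher and 0 lower (median 0.09), and with the length trend removed 3 were higher without TNF, in both cases without Ets1 and Tgfbr1. At equal summed RPKM 6 were higher, with Smad3 added. Scx, a tendon transcription factor gene, was at 11.6 RPKM in the library labelled Mll1-/- against 1.05 RPKM in wild type (log2 2.96). Trps1, a GATA-type factor gene of cartilage and hair, was at 2.85 against 0.318 RPKM (2.04). The other genes past the rule, named after their values were seen, were Creb3l1 (2.42 against 0.284 RPKM), Ets1 (42.1 against 19.1 RPKM) and the TGF-beta receptor gene Tgfbr1 (24.8 against 11.6 RPKM). The lowest were Smad4 (24.3 against 31.3 RPKM, -0.36), the shared mediator of TGF-beta signals, and Ccn2 (107 against 136 RPKM, -0.34), a TGF-beta target gene.

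The other collagens of fibrils were few. Of the later fibrillar chain genes, Col27a1, known from cartilage, had 1.93 RPKM with TNF (284 reads) and 2.26 RPKM without it (346 reads) in cells labelled Mll1-/-, against 0.159 RPKM (34 reads) and 0.142 RPKM (30 reads) in wild type. Its levels thus separated the genotypes in the same direction as Col3a1. Col24a1 had 3 reads in the library labelled Mll1-/- with TNF and 0 in the others. Of 9 genes for collagens that decorate fibrils (the FACIT group), 6 were matched and 1 reached 1 RPKM: Col16a1, at 3.44 and 3.74 RPKM with and without TNF in cells labelled Mll1-/-, against 4.94 and 5.30 RPKM in wild type.

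The genes nearest in pattern were sought over the 4 libraries among 9576 named genes with at least 3 RPKM in a library, by Euclidean distance between log2(RPKM + 0.5) values taken relative to the wild-type control. Nearest to Col1a1 were Herc3 (distance 0.05), Myorg (0.09) and the integrin-linked cytoskeletal gene Tln1 (0.12). Nearest to Col3a1, at larger distances, were Hoxd8 (0.32), the adhesion gene Alcam (0.44) and Gm16897 (0.48), all of them near 0 RPKM in wild type. Nearest to Col5a1 were Map2k5, Shroom4 and Cul7 (0.03 to 0.04), and nearest to Col11a1 were Mat2b, Cnn2 and Arhgef10 (0.04 to 0.06), where differences are small for many genes. With 4 values per gene such nearness is a description only.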

How the data were processed

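RNA-seq values of 4 libraries, 1 per group, were used as the authors deposited them, in RPKM. Per the submitters' processing notes, the authors used TopHat and DESeq, with no version or role stated. Genome build, annotation, counting program and strand: not given in the sources used here. Without strand, reads of overlapping antisense genes cannot be separated. Entries were named by accession, 20849 through a RefSeq gene table on GRCm38.p6 and 102 through GENCODE M21, and 6393 stayed unnamed. The entry with the highest mean RPKM stood for a symbol.

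Whole reads were recovered from the RPKM values for 27340 of 27344 entries, within 0.001 reads. Reads summed over entries exceed the totals 1.67 to 1.77 times, so reads can count for several entries. Features with at least 1 RPKM in a library were compared as log2(RPKM + 0.5), tested on simulated data. A library with 0 reads was given a floor of 3. Counting intervals treat reads as independent molecules, which they are not without molecular identifiers. The length trend is a lowess curve (fraction 0.3, statsmodels 0.14.6) of the log2 difference on log length.

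All members were named, with up to 4 genes per list: the 2 highest and the 2 lowest differences between genotypes without TNF. The members and lists were chosen with earlier results of these data known. Alternatives were other pseudocounts, filters, scalings, entries and size rules, and removal of the length trend.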

Additional observations from a re-analysis of the deposited data

How the results depend on the processing

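No paired analysis was possible because each group is 1 library. The count of 3 collagen genes higher and 0 lower, without and with TNF, and the counts of 0 for both TNF comparisons and for the difference in response, were found under each of the 11 alternatives, except that without a filter Col2a1 was added as 1 lower gene to both genotype comparisons. Of 495 values of single genes under an alternative, 429 moved by less than their counting error, 66 by more, and 0 of those past the rule changed sign. The 429 include values fixed in advance. The other filters and the 1.5-fold rule cannot alter a single gene's difference, and the mean over entries can alter Col2a1 alone. The 429 also include Col2a1 without TNF at a pseudocount of 0.1, where it stood at -3.4 in place of -1.54. The share of summed RPKM depends on what it is taken over. Over all transcript entries it was 0.0449% and 0.0577% with and without TNF in cells labelled Mll1-/-, against 0.0127% and 0.0142% in wild type. Over named genes it was 0.114% and 0.145% in cells labelled Mll1-/-, against 0.0320% and 0.0357% in wild type. Scaling to equal summed RPKM without the 20 genes of highest level moved the median of all features by 0.28 between genotypes without TNF, by 0.10 with TNF, by -0.15 for TNF in cells labelled Mll1-/- and by -0.17 for the difference in response. The numbers of all features higher and lower then became 73 and 38 in place of 99 and 23 for TNF in cells labelled Mll1-/-, and 62 and 103 in place of 109 and 61 for the difference in response. With the length trend removed they were 1186 and 701 between genotypes without TNF, 61 and 57 for TNF in cells labelled Mll1-/-, and 36 and 150 for the difference in response. A 1.5-fold rule gave 2064 and 2804, 1765 and 1668, 721 and 136, 231 and 83, and 902 and 337 for genotype without TNF, genotype with TNF, TNF in cells labelled Mll1-/-, TNF in wild type and the difference in response. A pseudocount of 0.1 gave 158 and 65 for TNF in cells labelled Mll1-/-, 126 and 30 in wild type, and 197 and 113 for the difference in response. Depth limits Col11a2, Col5a3 and Col11a1, whose ratios rest on 4 to 127 reads per library. The list counts and the read-based difference in response at equal summed RPKM, and the list counts without the length trend, were added after seeing the data.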

Other observations

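The levels of genes next to the collagen genes, by their order in the RefSeq table on GRCm38.p6, varied from gene to gene. Col3a1 and Col5a2 are direct neighbours, yet without TNF Col3a1 stood at 28.1 RPKM in the library labelled Mll1-/- against 0.531 RPKM in wild type, while Col5a2 stood at 28.3 against 30.2 RPKM. On the other side of Col3a1, Gulp1, which encodes an adaptor for the engulfment of dying cells, was at 0.736 RPKM in the library labelled Mll1-/- against 3.89 RPKM in wild type (log2 -1.83). Beyond Col5a2, the ribosome biogenesis gene Wdr75 was at 61.9 against 45.3 RPKM (0.45), and the iron exporter gene Slc40a1 at 2.40 against 0.0854 RPKM (2.31). Around Col1a2, the G protein subunit gene Gng11 was at 7.80 RPKM in the library labelled Mll1-/- against 0.552 RPKM in wild type (2.98), Casd1 at 10.3 against 5.12 RPKM (0.94) the vesicle transport gene Bet1 at 7.54 against 8.61 RPKM (-0.18) and Sgce at 4.66 against 6.07 RPKM (-0.35). Near Col5a1, which itself differed by 0.39, Olfm1 was at 30.4 against 0.0671 RPKM (5.77) the retinoid receptor gene Rxra at 20.9 against 14.4 RPKM (0.52) and Wdr5 at 40.3 against 42.5 RPKM (-0.08). The genes beside Col2a1, Tmem106c (-0.61), Senp1 (0.52), Vdr (-0.00298) and Pfkm (-0.36), were within a difference of 1. For Col1a2, Col3a1, Col5a1, Col5a2 and Col2a1 all genes up to 2 places away with at least 1 RPKM in a library are given.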
